A study of Mus musculus with 5 samples.

Results

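Solute carriers are the membrane proteins that move small solutes into, out of and within cells, and this section describes those whose transcripts were measured in mouse bone marrow mesenchymal stem cells (MSC) with and without exposure to activated T cells. They were taken by symbol: every gene named Slc and a number, without the mitochondrial Slc25 carriers and without Slc7a2, Slc7a11 and Slc3a2. The rule gave 20 of the 2190 genes named in the deposited table, read from 26 probe sets. Of these, 18 encode solute carriers of 15 families. The other two only share the prefix: Slc7a6os lies on the strand opposite Slc7a6, and Slc9a3r2 encodes a scaffold protein that binds transporters.

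The arrays were Affymetrix expression arrays. The first group was MSC cultured alone, with 3 biological replicates, and the second was MSC kept for 48 h in a transwell system with purified T cells that had been stimulated with antibodies to CD3 and CD28, in a 10-fold excess over the MSC, with 2 biological replicates. All MSC were primary cultures from mouse bone marrow grown in Mesencult medium; strain and age are not given in the sources used here. The replicates are labelled as biological repetitions, and whether they came from separate animals is not stated.

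The deposited table holds 3373 probe sets and not a whole array, and it limits every comparison below. The co-culture arrays lay both above or both below every array of MSC alone in all of the 2190 named genes, so 100% of them had groups that do not overlap, and 100% passed an adjusted p of 0.05 in limma. The table therefore behaves as one selected on this comparison. That the solute carriers passed the test is accordingly a description of the table and no evidence about them as a class; what the data give is the direction, the size and the spread of each gene. The genome annotation names 319 solute carrier genes under the same rule, and the 301 that are not in the table were not analysed here. RNA was measured in bulk, so fewer cells of a type and less RNA per cell cannot be told apart.

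Of 21 listed MSC markers 10 were in the table, with a mean of 10.27 to 10.50 in MSC alone and of 9.37 and 9.19 in the co-culture arrays (log2 scale). Of these 7 fell, among them type I and III collagen genes, Pdgfrb and Cd44, and 3 rose: Pdgfra by 3.77, Vcam1 by 2.91 and Kitl by 1.10. None of the 29 listed T cell markers was in the table, and neither was any of the 15 for endothelium, the 16 for B cells and granulocytes or the 14 for adipocytes and osteoclasts, so those cell types could not be assessed. Of 31 macrophage and monocyte markers 2, Mpeg1 and Ctss, were measured. Their mean was 3.74, 4.24 and 4.03 in MSC alone and 8.03 and 7.35 in co-culture. Macrophages also use several of the transporters described here, among them those encoded by Slc11a2, Slc40a1 and Slc15a3. The part of such cells in the changes of these genes was not tested.

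Solute carriers work by alternating access, exposing a binding site first to one side of the membrane and then to the other, and are driven by the gradient of their own substrate or by sodium, protons or chloride moving with it. Some sit in the plasma membrane and set what a cell takes up, while others load the Golgi, endosomes or lysosomes. Stromal cells that secrete collagen and proteoglycans depend on them for amino acids, for the sugar nucleotides used in the Golgi and for the metal ions of secreted enzymes.

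Of the 18 solute carriers 7 rose in co-culture and 11 fell; over all named genes 48.3% rose and 51.7% fell. Differences of at least 2-fold were seen in 2 that rose and 10 that fell, against 26.3% and 35.0% of all named genes. The median difference, co-culture minus MSC alone, was -1.14 on the log2 scale, against -0.61 over all named genes. No probe set of the table has groups less than 0.34 apart, so these medians depend largely on how many genes fell. Regardless of direction the median size was 1.40, against 1.13 over all named genes. The extremes were -2.84 for Slc35a2 and 2.02 for Slc11a2. Both co-culture arrays had lower medians over the table (7.42 and 7.50) than the arrays of MSC alone (7.61 to 7.64). Centring each array on its median moved differences up by 0.16, which turned no direction among the solute carriers. It took the number at least 2-fold higher from 2 to 4 and the number at least 2-fold lower from 10 to 9. A stricter adjustment assumed 15 times the number of probe sets, about the size of a whole array. It changed the number of tests and not the spread, which limma still estimated from this table. Under it 1 solute carrier that rose, Slc11a2, and 1 that fell, Slc39a13, stayed under the threshold in limma, against 5.43% and 5.53% of all named genes, 11.0% in all.

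**Figure D1:**
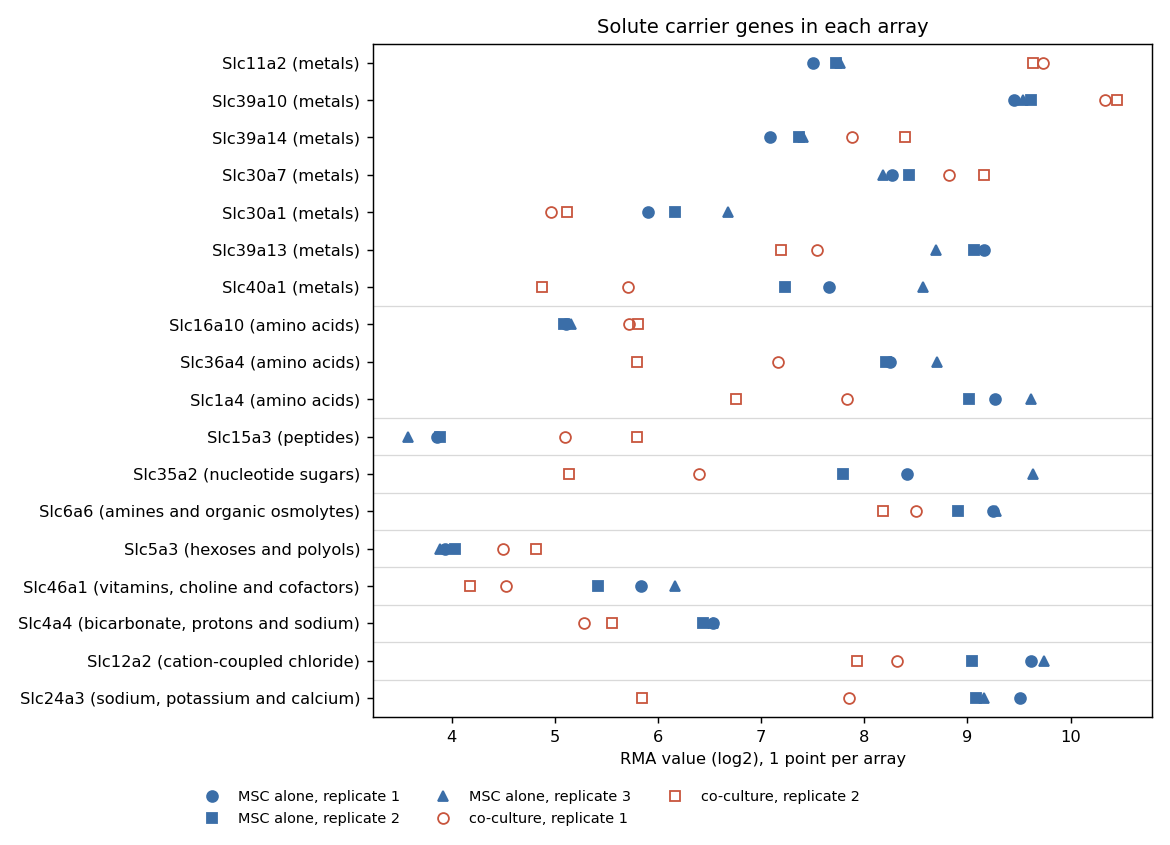
RMA values (log2) of the 18 solute carrier genes, 1 point per array, with MSC alone filled and co-culture open and the symbol shape giving the replicate. In each gene the co-culture points lie on one side of all points of MSC alone; the narrowest gap is 0.39 and the widest 1.87. Levels of different genes come from different probes and are not compared.

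Metal transporters were the largest class, with 7 of the 34 genes of that class in the annotation. Of these 4 rose and 3 fell, while 48.3% of all named genes rose and 51.7% fell. Iron crosses from endosomes into the cytosol through DMT1, the divalent metal transporter encoded by Slc11a2, and leaves the cell through ferroportin, encoded by Slc40a1, the iron exporter of mammalian cells. Slc11a2 read 7.50, 7.73 and 7.77 in MSC alone and 9.73 and 9.64 in co-culture. Both co-culture arrays lay 1.87 or more above the highest array of MSC alone. The rise of 2.02 ± 0.18 (SE) on the log2 scale, 4.05-fold, was the largest among the solute carriers (adjusted p = 0.00118 in limma), and a second probe set rose by 2.06. Slc40a1 moved the other way. It stood at 7.66, 7.23 and 8.57 in MSC alone and at 5.71 and 4.88 in co-culture. Replicate 3 of MSC alone was the highest array, and the groups were 1.52 apart at their closest. Slc40a1 fell by 2.52 ± 0.45 (SE), or 5.75-fold (adjusted p = 0.00487 in limma). Without replicate 3 of MSC alone it fell by 2.15.

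Zinc transporters fall into the Slc30 exporters, which move zinc out of the cytosol, and the Slc39 importers, which move it in. Of the 5 measured, 3 rose and 2 fell, and each family moved in both directions. Among all named genes 48.3% rose. The plasma membrane exporter ZnT1, encoded by Slc30a1, fell from 5.90, 6.17 and 6.68 in MSC alone to 4.96 and 5.12, a fall of 1.21 ± 0.26 (SE), while Slc30a7, whose product ZnT7 carries zinc into the Golgi, rose by 0.70 ± 0.20. Slc30a7 read 8.27, 8.43 and 8.18 in MSC alone and 8.82 and 9.16 in co-culture, the narrowest gap of the 18 genes. Without co-culture replicate 2 its adjusted p in limma was 0.0577, over the threshold.

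Among the importers, Slc39a10 and Slc39a14 rose and Slc39a13 fell. Slc39a10, encoding the plasma membrane importer ZIP10, read 9.45, 9.62 and 9.54 in MSC alone and 10.33 and 10.45 in co-culture. The arrays of a group lay within 0.17 of each other and the rise was 0.85 ± 0.17 (SE), with 0.91 in a second probe set. Slc39a14 encodes ZIP14, which carries zinc and also iron that is not bound to transferrin. It rose from 7.09, 7.37 and 7.41 to 7.88 and 8.40, by 0.85 ± 0.23, and its adjusted p in limma was 0.0542 without co-culture replicate 2. Slc39a13 encodes ZIP13, which releases zinc from compartments of the secretory pathway and is required for normal connective tissue. It read 9.16, 9.06 and 8.70 in MSC alone and 7.54 and 7.19 in co-culture, and fell by 1.61 ± 0.22, or 3.04-fold (adjusted p = 0.00322 in limma). The groups lay 1.15 apart at their closest. The metallothionein genes and the zinc sensor gene Mtf1 were not analysed here.

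Promoter sequence is shown for the zinc exporter gene that fell and a zinc importer gene that rose, chosen because each had a match to one of 5 motifs searched. Of the other zinc transporter genes, Slc30a7 and Slc39a13 had no match, and Slc39a14 was not searched. RefSeq windows of GRCm38.p6 were matched for 14 of the 20 genes, 18 windows in all, and the 250 bases before each start were searched on both strands. Capitals mark the match. In Slc39a10 it is the palindrome TTCNNNGAA, the core of sites bound by STAT proteins, which starts 82 bases before the start and was found in 1 of its 2 windows (chr1:46925777-46926026, minus strand).
Slc39a10: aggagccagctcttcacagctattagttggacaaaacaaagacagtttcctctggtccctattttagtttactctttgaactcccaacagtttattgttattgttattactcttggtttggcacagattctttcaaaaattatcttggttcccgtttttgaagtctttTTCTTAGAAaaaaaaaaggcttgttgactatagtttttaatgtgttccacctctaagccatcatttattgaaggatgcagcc
In Slc30a1 it is a metal response element, searched as TGCACNC or TGCGCNC, the motif of the zinc-sensing factor MTF1, on the minus strand 43 bases before the start; 30 bases around it are given (chr1:191906726-191906755, plus strand).
Slc30a1: aacgggggttccGAGTGCAaagcaaagttt
The palindrome was in 1 of the 18 windows of these genes and in 7.02% of 32851 windows of the genome, and the metal response element in 5 of the 18 (Slc30a1, Slc24a3, Slc4a4, Slc35a2 and Slc7a6os) and in 21.4% of all windows. Interferon-stimulated response elements, C/EBP-ATF elements (TGATGNAAN) and kappa-B sites (GGGANTTCC or GGGNTTTCC) were in 0 of the 18, and in 2.98%, 3.44% and 2.6% of all windows. These are matches of letters and do not show binding.

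Of 55 amino acid transporter genes in the annotation 3 were measured, of which 2 fell about 4-fold and 1 rose. Among all named genes 51.7% fell. Slc1a4, encoding ASCT1, an exchanger of small neutral amino acids such as serine, alanine and cysteine, read 9.27, 9.02 and 9.62 in MSC alone and 7.83 and 6.76 in co-culture. The co-culture arrays were 1.06 apart, more than the whole range of 0.60 in MSC alone, and both lay below it. Slc1a4 fell by 2.01 ± 0.36 (SE), or 4.02-fold (adjusted p = 0.00492 in limma), and its other two probe sets fell by 2.01 and 2.30. Slc36a4, encoding PAT4, a carrier of proline and tryptophan, fell by 1.91 ± 0.42 from 8.25, 8.21 and 8.71 to 7.16 and 5.80. Its size rested on single co-culture arrays: it fell by 2.59 without replicate 1 and fell by 1.23 without replicate 2. Slc16a10 encodes TAT1, which carries aromatic amino acids although its family is named for monocarboxylates. It stood at 5.11, 5.09 and 5.16 in MSC alone and at 5.72 and 5.81 in co-culture, a rise of 0.65 ± 0.16, the smallest change of the 18 genes. The 3 amino acid transporter genes that the rule leaves out all rose, Slc7a2 by 2.20, Slc7a11 by 1.48 and Slc3a2 by 1.09.

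Of 37 listed genes of the ATF4 amino acid response 2 were in the table. Cebpb and Cebpg, which encode leucine zipper factors that pair with ATF4, rose by 1.44 ± 0.34 and 1.42 ± 0.27 (SE). Over all named genes 48.3% rose, and whether an ATF4 response took place was not tested. Atf4 itself and its usual targets Asns, Chac1 and Trib3 were not analysed here.

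Slc15a3, encoding PHT2, a carrier of histidine and small peptides in the membrane of endosomes and lysosomes, was the only measured peptide transporter gene of 5. It read 3.86, 3.89 and 3.58 in MSC alone and 5.10 and 5.80 in co-culture. All 5 values lie in the lowest 25% of the table's values, below 6.11, where RMA compresses differences and no detection call is given. On that scale it rose by 1.67 ± 0.26 (SE), or 3.19-fold (adjusted p = 0.00380 in limma).

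**Figure D2:**
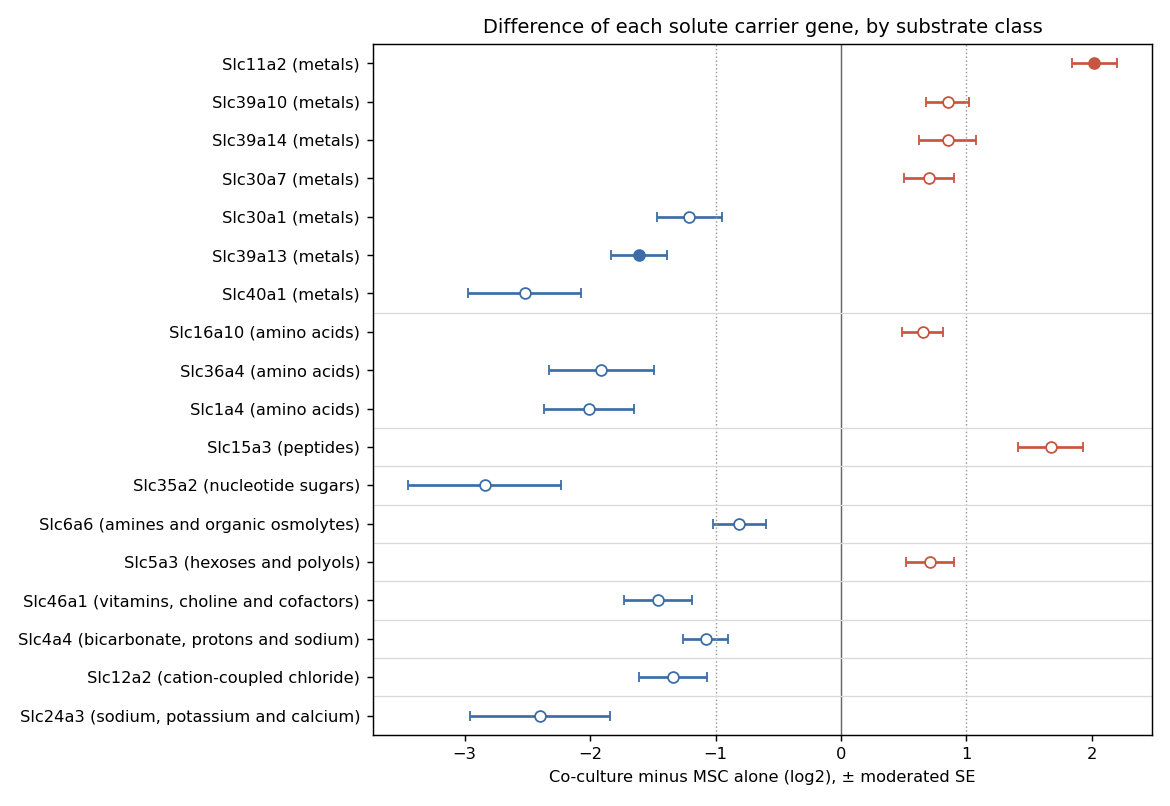
Difference of each solute carrier gene, co-culture minus MSC alone (log2), with limma's moderated standard error and grouped by substrate; dotted lines mark 2-fold. Red points rose and blue points fell, and filled points, Slc11a2 and Slc39a13, kept an adjusted p under 0.05 when 15 times the number of probe sets was assumed.

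Slc35a2 encodes the carrier that brings UDP-galactose into the Golgi, where it is used to build N-glycans and the linkage region of proteoglycans. It was 1 of 14 nucleotide sugar transporter genes and had the largest fall of all solute carriers. The values were 8.41, 7.79 and 9.64 in MSC alone and 6.40 and 5.14 in co-culture. The arrays spread widely in both groups, by 1.85 and 1.27, but did not overlap. Slc35a2 fell by 2.84 ± 0.61 (SE), or 7.18-fold (adjusted p = 0.00667 in limma), while it fell by 2.21 with co-culture replicate 2 left out and fell by 3.48 with replicate 1 left out. Its only probe set ends in _x_at, a kind that can bind unrelated transcripts, so the value is uncertain.

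Genes of sugar nucleotide and glycosaminoglycan synthesis and modification were listed beside Slc35a2. Of 69 such genes 8 were measured: 7 fell and 1 rose, with a median of -1.36. The list mixes enzymes that make or use sugar nucleotides with others that modify finished chains, so its count does not describe users of sugar nucleotides alone. Over all named genes 51.7% fell. Sulf2, an extracellular sulfatase that trims heparan sulfate, read 11.73, 11.40 and 10.94 in MSC alone and 9.32 and 9.16 in co-culture, and fell by 2.12 ± 0.27 (SE). Its probe set also ends in _x_at, and the other one fell by 1.90. Dsel, a dermatan sulfate epimerase, fell by 1.82 ± 0.36, the chondroitin sulfotransferase gene Chst12 fell by 1.58 ± 0.28, and Csgalnact1, which starts chondroitin chains, fell by 1.52 ± 0.18. The 1 that rose was Pmm1, a phosphomannomutase gene, by 0.80 ± 0.20; it lies outside the 4 largest changes and was named after its value was seen.

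Organic osmolytes are solutes that cells accumulate to keep their volume without disturbing proteins. The 2 measured transporters that carry one are described together, although Slc5a3 was classed with hexoses and polyols. They moved in opposite directions. Slc6a6, encoding the taurine transporter, read 9.25, 8.91 and 9.28 in MSC alone and 8.50 and 8.18 in co-culture. It fell by 0.81 ± 0.21 (SE), or 1.75-fold, the smallest fall among the solute carriers, and a second probe set fell by 0.75. Slc5a3, encoding the sodium and myo-inositol cotransporter, rose by 0.71 ± 0.19 from 3.94, 4.03 and 3.89 to 4.50 and 4.82. Those values are near the floor of the table, whose lowest value is 2.62, and the size of the rise is therefore uncertain.

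The 3 measured transporters of bulk ions are described together, although each was the only measured gene of its own class. All 3 fell, while 51.7% of all named genes fell, and they were not listed as a group beforehand. Slc12a2 encodes NKCC1, which brings sodium, potassium and chloride into the cell and restores volume after shrinkage. It read 9.62, 9.04 and 9.74 in MSC alone and 8.32 and 7.93 in co-culture, and fell by 1.34 ± 0.27 (SE), or 2.54-fold (adjusted p = 0.00607 in limma). NKCC1 is switched on by phosphorylation through the kinase WNK1 and then SPAK, the product of Stk39, and both kinase genes were in the table. Wnk1 stood at 11.85, 11.61 and 11.41 in MSC alone and at 10.84 and 10.14 in co-culture, a fall of 1.13 ± 0.27. Stk39 read 7.18, 7.14 and 7.22 against 6.33 and 6.28 and fell by 0.88 ± 0.16; its probe set ends in _s_at and can bind related transcripts. All 3 genes of this cascade that were measured were thus lower in both co-culture arrays than in any array of MSC alone, as is every gene of the table that fell. The other SPAK-type kinase gene, Oxsr1, was not analysed here.

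Slc4a4, encoding NBCe1, which moves sodium and bicarbonate together and so takes part in the control of intracellular pH, read 6.53, 6.44 and 6.53 in MSC alone and 5.28 and 5.56 in co-culture. The spread was small in both groups, and the fall was 1.08 ± 0.18 (SE; adjusted p = 0.00428 in limma), with 1.00 in a second probe set. Slc24a3 encodes NCKX3, which expels calcium in exchange for sodium while carrying potassium out. It read 9.51, 9.08 and 9.16 in MSC alone, but 7.85 and 5.85 in co-culture, 2.00 apart and the widest gap between replicates among the solute carriers. With all arrays it fell by 2.40 ± 0.56. With co-culture replicate 1 left out it fell by 3.40, and with replicate 2 left out it fell by 1.40. In a linear model that did not share spread between probe sets, its adjusted p in limma was 0.0524, over the threshold.

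Slc46a1, encoding the proton-coupled folate transporter, was the only measured gene of the 18 for vitamins, choline and cofactors. It read 5.84, 5.42 and 6.17 in MSC alone and 4.53 and 4.18 in co-culture. It fell by 1.46 ± 0.27 (SE), or 2.74-fold (adjusted p = 0.00537 in limma), and all but the highest of its values lie in the lowest 25% of the table's values.

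**Figure D3:**
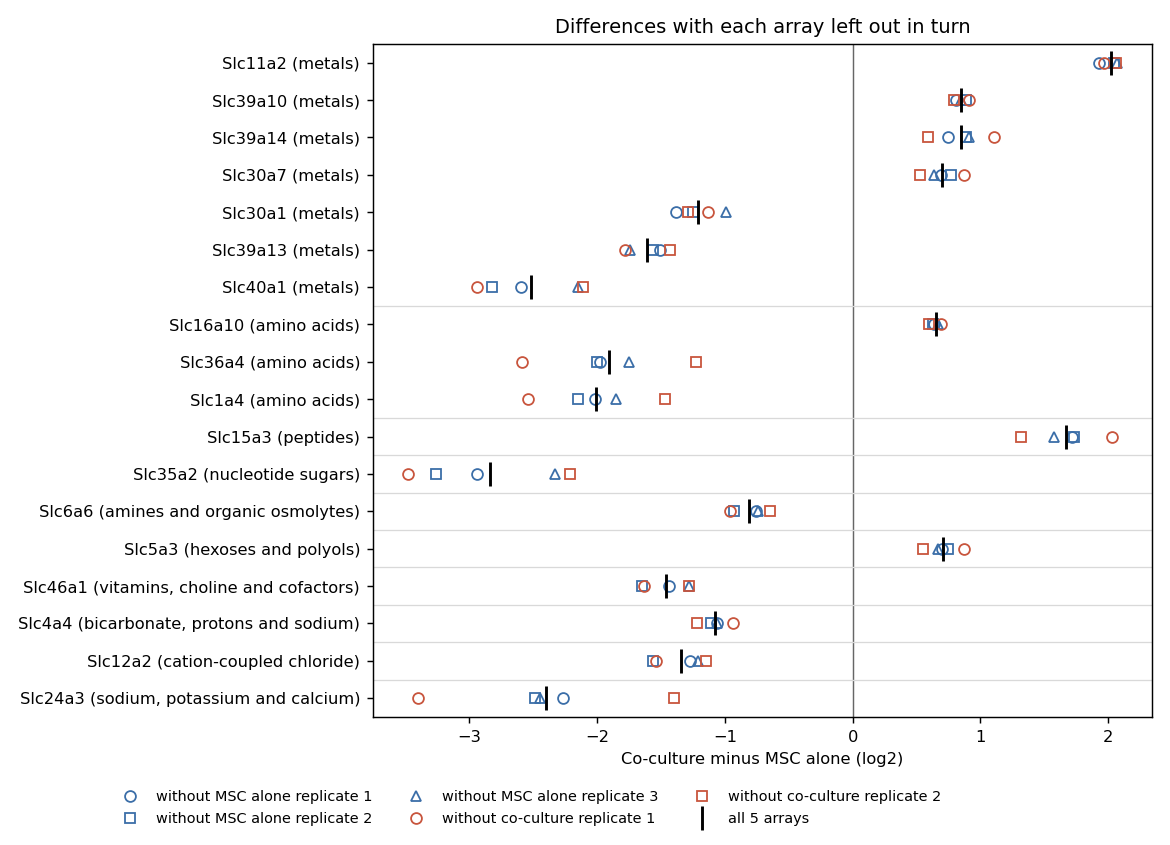
Difference of each solute carrier gene (log2, co-culture minus MSC alone) with all 5 arrays (black bar) and with each array left out in turn (open symbols, blue for MSC alone and red for co-culture). No gene changes sign, and with groups that do not overlap none could. Slc24a3 has the widest range, from -3.40 to -1.40, and Slc16a10 one of the narrowest.

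The same arrays stood apart in many of these genes. Co-culture replicate 2 was below replicate 1 in 9 of the 11 solute carriers that fell and above it in 6 of the 7 that rose. Over all named genes the shares were 78.2% of those that fell and 69.0% of those that rose, so the same order of the arrays was common in the table. Replicate 3 of MSC alone was the highest of its group in 9 of the 11 that fell, among them Slc40a1, Slc35a2 and Slc30a1, and in 49.1% of all named genes that fell. Leaving out 1 array moved the fold by over 1.5 times in Slc24a3, Slc36a4 and Slc35a2.

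The genes that carry the prefix without encoding a carrier moved in opposite directions. Slc9a3r2, encoding the scaffold NHERF2, which ties transporters to the cytoskeleton, read 5.40, 5.26 and 5.76 in MSC alone and 4.72 and 4.66 in co-culture and fell by 0.78 ± 0.21 (SE). Slc7a6os rose by 1.20 ± 0.31, from 6.69, 7.03 and 7.51 to 8.0 and 8.55, and without co-culture replicate 2 its adjusted p in limma was 0.0524.

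Of 17 genes listed as transporter partners and zinc-binding proteins 6 were measured, all of them partner genes. All 6 fell, with a median of -0.88, while 51.7% of all named genes fell. The list holds Slc9a3r2, Wnk1 and Stk39 given above. Txnip, an arrestin-like protein that removes glucose transporters from the plasma membrane, fell 10.7-fold, from 10.43, 10.20 and 9.82 to 5.76 and 7.71, a fall of 3.41 ± 0.56 (SE). The co-culture arrays were far apart: the fall of Txnip was 5.42-fold with replicate 1 left out and 21.0-fold with replicate 2 left out. The other probe set fell by 2.55. Bsg, encoding basigin, the chaperone that brings monocarboxylate transporters to the cell surface, fell by 0.89 ± 0.17, from 13.67, 13.79 and 13.83 to 12.94 and 12.81. No glucose transporter of the Slc2 family and no monocarboxylate transporter other than Slc16a10 was analysed here.

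Other routes across membranes were also sparse in the table. Of 64 listed P-type and vacuolar ATPase pump genes 5 were measured, of which 3 rose and 2 fell. Over all named genes 48.3% rose and 51.7% fell. Atp2c1, the Golgi pump for calcium and manganese, read 8.02, 7.81 and 7.80 in MSC alone and 6.05 and 5.88 in co-culture and fell by 1.91 ± 0.18 (SE; adjusted p = 0.00123 in limma). Atp13a3, linked to polyamine transport, rose by 1.48 ± 0.23, and its other 2 probe sets disagreed: one rose by 2.23 and one fell by 0.55. Atp6v1c1, a subunit of the proton pump that acidifies lysosomes, rose by 0.81 ± 0.19, and Atp8b2, a lipid flippase gene, fell by 0.73 ± 0.19.

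Of 197 ion channel and aquaporin genes 8 were measured, and 5 fell and 3 rose, while 51.7% of all named genes fell. The calcium channel gene Cacna1c fell by 1.82 ± 0.41 (SE), the water channel genes Aqp1 and Aqp5 fell by 1.43 ± 0.34 and 1.21 ± 0.28, and the potassium channel gene Kcnh2 fell by 1.12 ± 0.26. The 3 that rose did so by 0.70 or less and include Scnm1, which carries a channel prefix but encodes a splicing factor and was named after its value was seen. Slco1a5, the only measured gene of 14 organic anion transporters of the Slco family, fell by 2.90 ± 0.56, from 8.90, 8.64 and 9.36 to 7.03 and 5.11. With co-culture replicate 1 left out Slco1a5 fell by 3.86, and with replicate 2 left out it fell by 1.94. Abca5, the only one of 46 ABC transporter genes, fell by 0.83 ± 0.23.

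**Figure D4:**
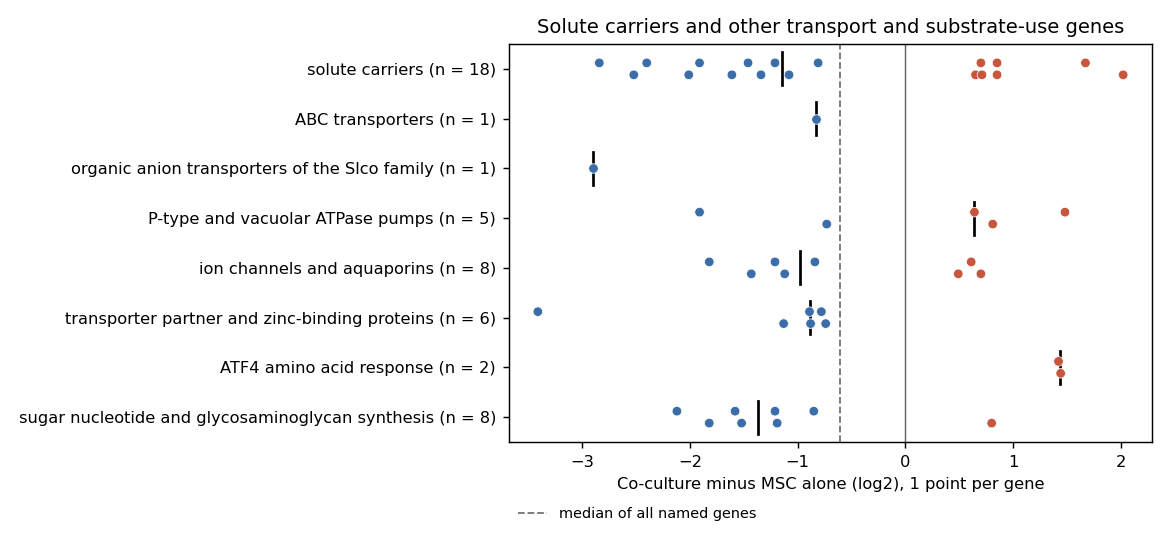
Differences (log2, co-culture minus MSC alone) of the 18 solute carriers and of the measured genes of 7 accompanying lists, 1 point per gene, red for genes that rose and blue for genes that fell. Black bars are list medians and the dashed line is the median of all named genes, -0.61. The 6 partner genes all lie below 0, as do 7 of the 8 genes listed for sugar nucleotides and glycosaminoglycans and 51.7% of all named genes.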

How the data were processed

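The authors' deposited values are log2 summaries per probe set from RMA, per the submitters' processing notes; the version and the rule that chose the 3373 probe sets are not given in the sources used here. RMA corrects background, quantile-normalises arrays and gives no detection call. The platform's probe table named 1 gene for 3013 probe sets, several for 69 and none for 291; Entrez identifiers of 3010 were found in RefSeq (GRCm38.p6), and 0 symbols changed. Where a gene had several probe sets, the brightest by its mean of all 5 arrays was used.

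Co-culture was compared with MSC alone by limma 3.58.1 (R 4.3.3; lmFit, eBayes, two-sided, no covariates, no filter) over all probe sets, with Benjamini-Hochberg adjustment over all of them and a threshold of 0.05. Errors are moderated SEs; n = 3 and n = 2. The number of arrays limits the precision, and p-values rest on these samples alone. They do not measure only a gene's own spread, because limma shares spread between probe sets. That shared spread was estimated from a table that behaves as one selected for separated groups, so the p-values may be too small. Neither the threshold for single genes nor the stricter adjustment for more tests corrects this. The fit was also run on simulated data, drawn without any selection of probe sets. That run cannot show how the p-values behave in a selected table.

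The members and lists were chosen with earlier results of these data known. Every member may be named, and of each accompanying list up to 4 genes with the largest differences. Genes were classed by the substrate of their family, with single genes placed by their known substrate; Slc16a10 was moved to amino acids after the table was seen. Alternatives covered scaling, moderation, dim and cross-binding probe sets, the number of tests, single arrays and a replicate block.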

Additional observations from a re-analysis of the deposited data

How the results depend on the processing

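No solute carrier changed direction under any of the 13 alternatives that were run. Leaving out an array could not have turned one, since the groups of every gene do not overlap. Moderation, the prior and the number of tests do not enter the difference. With each array centred on its median 4 genes instead of 2 were at least 2-fold higher, and 9 instead of 10 at least 2-fold lower. Without the dimmest 25% of probe sets 12 of the 18 genes could be read: 4 instead of 7 passed as higher and 8 instead of 11 as lower, 1 and 7 of them by at least 2-fold, with 2 instead of 3 metal transporters lower and 0 amino acid transporters higher, since Slc16a10 was among those removed. Adjusted for 15 times the number of probe sets, limma called 1 gene higher and 1 lower, against 5.43% and 5.53% of all named genes. Each was a metal transporter, the largest class, and also changed at least 2-fold. Of the amino acid transporters 0 passed in either direction. All 3 had an unadjusted p under 0.05 in limma, as every gene of the table had. Leaving out 1 array at a time, between 5 and 7 genes passed as higher and 11 as lower in each case, and between 2 and 4 metal transporters passed as higher, the 2 without co-culture replicate 2. The groups share replicate numbers 1 and 2. Deviations of same-numbered arrays from their group means correlated at 0.221 and 0.32 across probe sets. Replicate 3 of MSC alone correlated at 0.106 with co-culture replicate 1. With 2 co-culture arrays the deviations of one mirror those of the other, so these values are not independent and cannot decide on pairing. No label ties the arrays, and they were treated as unpaired. With the replicate number as a block 7 genes were higher and 11 lower, as without it, and 9 instead of 10 were at least 2-fold lower. Without detection calls, the sizes of changes in low genes such as Slc15a3 and Slc5a3 are limited by signal over background.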
